A study of Homo sapiens with 6 samples.

Results

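Cytosolic ribosomal protein genes were compared between HaCaT keratinocytes given a miR-21-3p mimic and HaCaT keratinocytes given a negative control (NC) mimic. HaCaT is a spontaneously immortalized human skin keratinocyte line, and miR-21-3p is the less abundant strand cut from the miR-21 hairpin. By the labels each group held 3 libraries of polyadenylated RNA, collected 48 h after transfection with 1 nM of mimic, and the labels call them biological replicates. All 6 libraries came from this single line, and the NC cultures were transfected as well, so no untransfected cells enter the comparison. The study's methods speak of small RNA libraries instead, and the labels were followed here. No reading of the mimic itself was analysed here, so its uptake was not checked.

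Members were the table rows named RPL or RPS plus a number, with or without a closing A, X or L, together with RPLP0, RPLP1, RPLP2 and RPSA. The rule took 77 of 22152 rows, of which 47 belong to the large subunit and 30 to the small subunit. A gene was tested when its normalised read count reached 10 in at least 3 libraries, which kept 75 members (45 large, 30 small) among 14795 genes. RPL17 was listed at 0 in all 6 libraries and was not tested. The row named RPL26 held 0 to 1.79 normalised reads and was not tested either, and its identifier carries another gene name in GENCODE release 29. RPS10, RPS27 and RPL36A were not analysed here.

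A ribosome is built of a large and a small subunit, each a core of ribosomal RNA dressed with a single copy of most of its proteins. The large subunit joins amino acids and carries the factor-binding stalk and the exit tunnel, while the small subunit binds and decodes the mRNA. Because the proteins are needed in fixed proportion, their mRNAs are usually made at high and matched levels in dividing cells such as keratinocytes. Many of these mRNAs begin with a 5′ terminal oligopyrimidine (TOP) tract, a C followed by a run of C and T, through which the mTORC1 kinase pathway and the RNA-binding protein LARP1 control their translation. Human genomes also hold many processed pseudogene copies of ribosomal protein mRNAs, whose near-identical sequence makes short reads hard to assign.

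The start-site sequences are shown because they are the feature this family shares. RefSeq start windows (GRCh38.p14) were matched for 60 members, and a gene was scored as TOP when any annotated start was a C followed by at least 4 pyrimidines on the gene's strand. By that reading 43 of 60 members (71.7%) had a TOP start, 27 of 37 in the large subunit (73.0%) and 16 of 23 in the small subunit (69.6%), beside 1404 of the 27305 genes with such a window (5.14%). When the run could begin within 5 bases of the start, the shares were 83.3% of those members and 25.2% of those genes. A match describes the letters at the annotated start and is not a mapped 5′ end. Each window below runs 5′ to 3′ from 15 bases before the annotated start, capitals mark the pyrimidine run that opens at the start, and the last 3 windows have none.
RPL10, chrX:154398362-154398391, plus strand: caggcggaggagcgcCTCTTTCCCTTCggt
RPL39, chrX:119791616-119791645, minus strand: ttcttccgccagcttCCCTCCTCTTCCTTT
RPLP0, chr12:120201097-120201126, minus strand: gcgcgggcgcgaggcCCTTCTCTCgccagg
RPSA, chr3:39406705-39406734, plus strand: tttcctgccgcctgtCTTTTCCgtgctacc
RPS3, chr11:75399503-75399532, plus strand: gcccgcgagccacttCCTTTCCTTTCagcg
RPS24, chr10:78033848-78033877, plus strand: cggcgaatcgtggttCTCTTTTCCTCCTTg
RPS18, chr6:33272060-33272089, plus strand: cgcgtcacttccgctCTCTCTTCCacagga
RPL4, chr15:66504841-66504870, minus strand: tacagcgggagtggtaagcacttccttttc
RPS28, chr19:8321481-8321510, plus strand: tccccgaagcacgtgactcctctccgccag
RPS4X, chrX:72277234-72277263, minus strand: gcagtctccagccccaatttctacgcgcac
RPL10 has 3 annotated starts and only the one shown opens a pyrimidine run of that length. None of the 3 annotated starts of RPL15 did.

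The libraries held 24.4 to 28.0 M gene-assigned reads, and 15974 to 16056 genes had a value above 0 in each. The correlation of log2 values between any pair of libraries lay between 0.989 and 0.996. Keratinocyte markers were plentiful, with 13 of 14 listed genes in the table and a summed level of 398580 to 432520 normalised reads per library. Of the markers of fibroblasts, immune cells, endothelial cells and melanocytes, 1 gene each was analysed here (COL1A1, CD14, VWF and PMEL), at 58.7 to 801 normalised reads. Across all genes tested, limma on log2(value + 1) with Benjamini-Hochberg adjustment called 1593 (10.8%) at an adjusted p under 0.05. That total ran from 179 without NC mimic replicate 3 to 2966 without NC mimic replicate 2, and it was 544, 276 and 365 without NC mimic replicate 1, mimic replicate 1 and mimic replicate 3.

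Of the 75 members tested, none rose and 2 fell, RPL10 and RPL15, both in the large subunit. Over all genes the same test called 904 higher (6.11%) and 689 lower (4.66%). Among members 11 higher and 4 lower differences had an unadjusted p under 0.05, a threshold passed by 15.3% of all genes as higher and 13.2% as lower. EdgeR's quasi-likelihood test on recovered reads called 0 higher (5.95% of all genes it tested) and 4 lower (5.14%), adding RPS28 and RPL3L. DESeq2 on those reads called RPL4 and RPLP0 higher (6.48% overall) and RPL10, RPL15 and RPS28 lower (5.27% overall). Without NC mimic replicate 2 limma called 8 members higher (11% of all genes in that fit), without NC mimic replicate 3 it called 2 (0.664% of all genes), and without mimic replicate 2 it called 1 (6.09% of all genes).

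**Figure D1:**
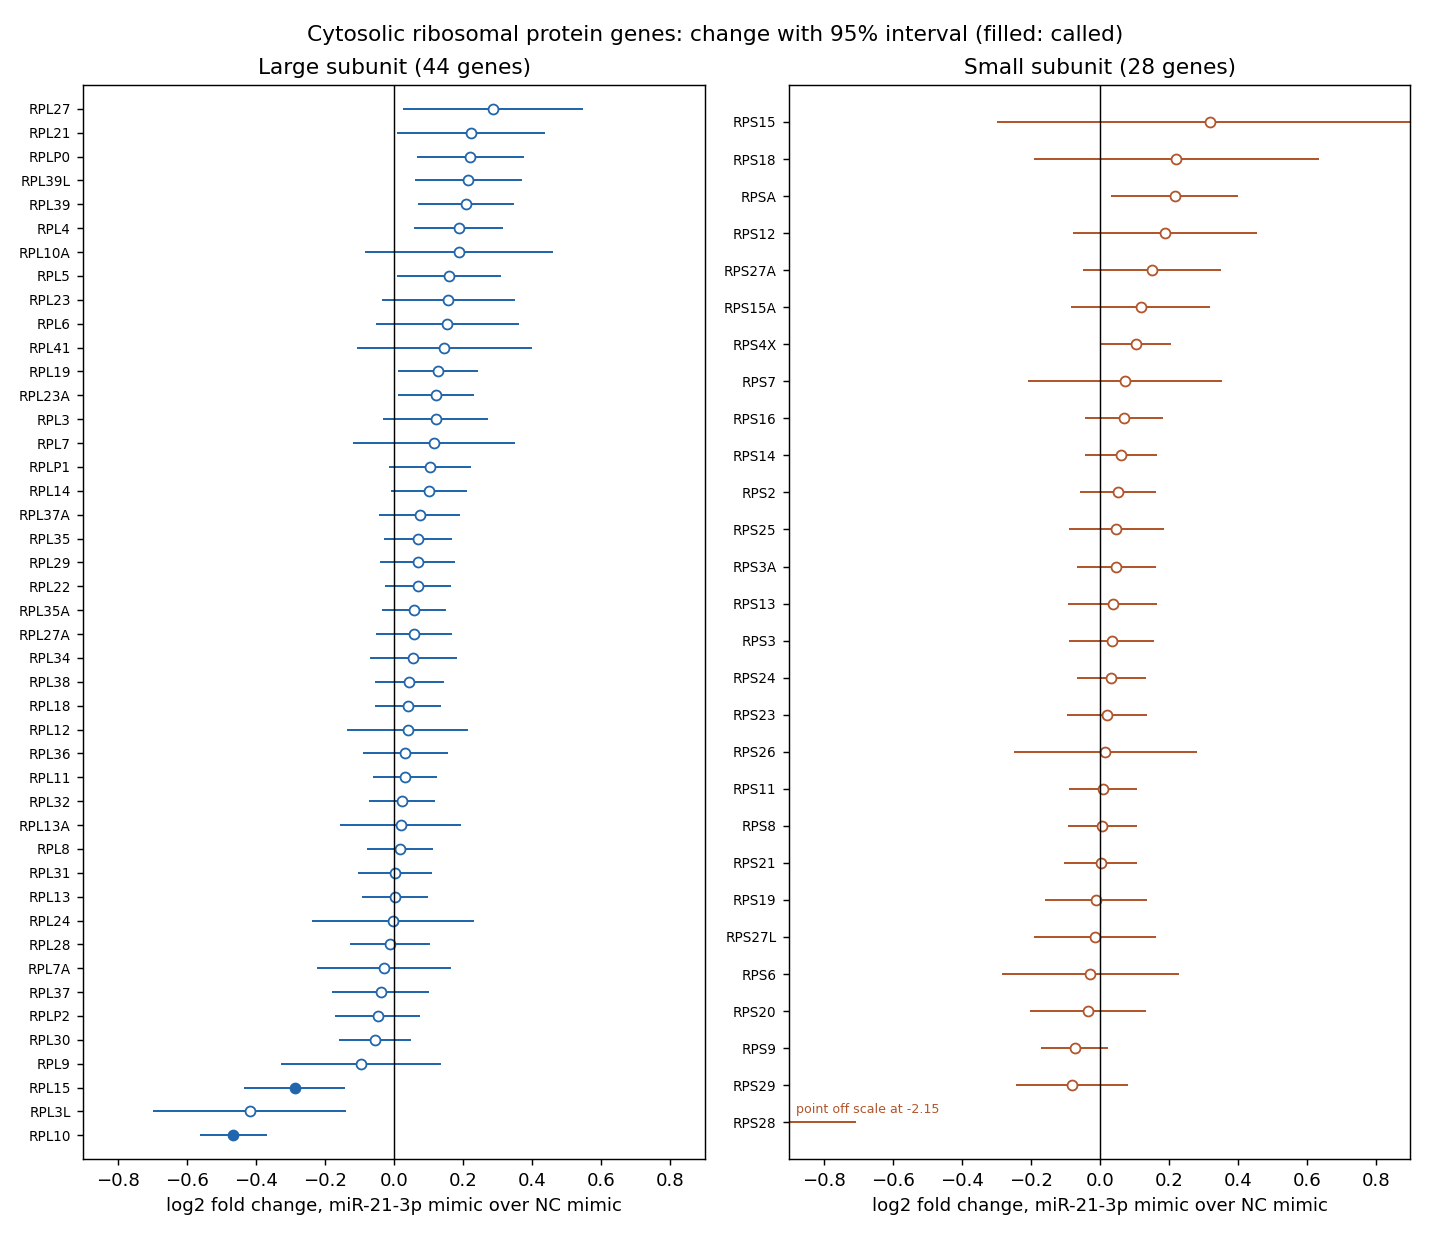
Log2 fold change (x axis, miR-21-3p mimic over NC mimic, on the log2(value + 1) scale) of 44 tested genes of the large subunit (left) and 28 of the small subunit (right), with its 95% interval from limma. Filled points mark the 2 genes called at an adjusted p under 0.05, RPL10 and RPL15; bars that reach the frame go on past it, and the point of RPS28 lies off the scale at -2.15.

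RPL10 encodes a protein that joins the large subunit late, in the cytoplasm, and sits beside the catalytic centre. Its normalised read count was 3630, 3820 and 3780 in the NC libraries and 2680, 2740 and 2710 in the mimic libraries. The groups lay far apart relative to their spread, and every mimic library was below every NC library. The log2 fold change was -0.47 (SE 0.043, adjusted p = 0.000561), a level 0.724 times that of NC with a 95% interval of 0.679 to 0.773. The call held without any 1 library, with adjusted p no higher than 0.0120.

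RPL15, another large-subunit protein needed early in the processing of its ribosomal RNA, read 6760, 6690 and 6410 in NC and 5120, 6140 and 5060 in mimic libraries. The groups did not overlap, and mimic replicate 2 lay nearest to NC. Its log2 fold change was -0.29 (SE 0.066, adjusted p = 0.0195), or 0.819 times NC with an interval of 0.741 to 0.904. The call was lost without NC mimic replicate 1 (adjusted p = 0.0684), NC mimic replicate 3 (0.0679), mimic replicate 1 (0.102) or mimic replicate 3 (0.0837).

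Both genes share most of their coding sequence with pseudogenes. Only 17.8% of the 50-base windows of the RPL10 coding sequence, and 19.3% of those of RPL15, occurred in no other gene of GENCODE release 29. The named pseudogene rows of RPL10 held 4.88 to 10.4 normalised reads in all, 0.221% of the reads of gene and rows together. The single row of RPL15, RPL15P3, held 2320, 2290 and 2580 in NC and 2350, 1860 and 2280 in mimic libraries, and these groups overlapped. With pseudogene reads added to the parent gene the log2 fold changes were -0.47 for RPL10 (adjusted p = 0.000475) and -0.25 for RPL15 (adjusted p = 0.00835). For RPL10 so few added reads could hardly change the value, so that sum is no check on read assignment. GENCODE release 29 names 19 pseudogenes of RPL10 and 9 of RPL15, of which 2 and 1 had a row. The part of read assignment in either difference beyond these named rows was not tested.

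RPL3L, a paralogue of RPL3 best known from muscle, was the lowest-reading tested member per kilobase. It stood at 109, 99.9 and 106 in NC and 84.6, 77.8 and 72.7 in mimic libraries. These groups did not overlap, and its log2 difference of -0.42 (SE 0.13) missed the limma threshold with an adjusted p of 0.0547. It was called with edgeR (0.0488), with upper quartile scaling (0.0485) and without NC mimic replicate 2 (0.0476).

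**Figure D2:**
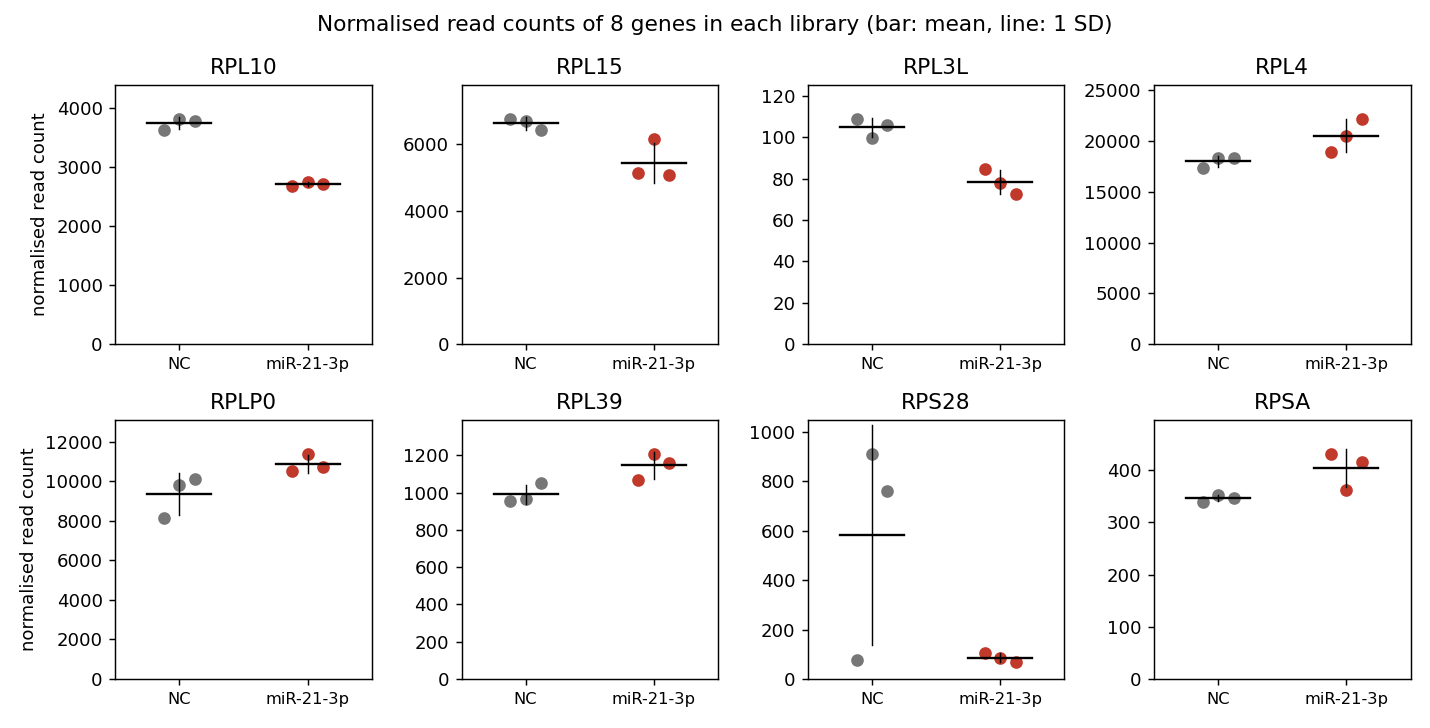
Normalised read count (y axis, linear and from 0) of 8 ribosomal protein genes in each of the 3 NC mimic (grey) and 3 miR-21-3p mimic (red) libraries, with the group mean as a bar and 1 SD as a line. RPL10 and RPL15 separate by group, while in RPS28 one NC library (77.1) sits among the mimic libraries and 2 (913 and 760) far above them.

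The other members shifted little, and more of them upward than downward. The median log2 fold change was 0.048 over the 75 members (interquartile range 0.0024 to 0.12), beside 0.0044 over all genes. With 1 library left out, the median of the members ran from 0.029 to 0.064. Estimates were positive for 57 of 75 members (76%) and for 51.0% of all genes tested. Members share the same 6 libraries, so their directions are not independent. Against the NC mean, the median member stood at -0.030, 0.018 and 0.014 in NC and 0.031, 0.077 and 0.028 in mimic libraries. For 52 members (69.3%) the whole 95% interval lay within a 1.25-fold change either way, beside 55.6% of all genes. In 11 members all 3 mimic values were above all 3 NC values (16.5% of all genes) and in 4 they were below (14.8% of all genes).

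The members nearest to a higher call were RPL39, RPL4, RPLP0 and RPL39L. RPL39, a short protein at the tunnel exit, read 957, 967 and 1050 in NC and 1070, 1210 and 1160 in mimic libraries. Its groups barely separated, and its log2 difference was 0.21 (SE 0.063, adjusted p = 0.0519), called only with total count scaling (0.0476). RPL39L, its paralogue known from testis, read 526, 518 and 498 in NC and 586, 643 and 564 in mimic libraries, a log2 difference of 0.22 (adjusted p = 0.0683). RPL39L shared none of its coding windows with another gene, whereas RPL39 had no window of its own.

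RPL4, a protein that lines the exit tunnel, read 17400, 18300 and 18300 in NC and 18900, 20500 and 22200 in mimic libraries. The log2 difference was 0.19 (SE 0.058, adjusted p = 0.0572), and it was called with DESeq2 (0.0245) and without NC mimic replicate 2 (0.0362). Once the reads of its pseudogene rows were added it stood at 0.10 (adjusted p = 0.158). RPSA, a small-subunit protein also known as a laminin receptor, read 340, 352 and 347 in NC and 432, 363 and 416 in mimic libraries, a log2 difference of 0.22 (adjusted p = 0.110). It was called without mimic replicate 2 (log2 0.29, adjusted p = 0.0483).

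The stalk recruits elongation factors, and none of its 4 members was called (10.8% of all genes were). With 4 genes this is too few to read as a result about the stalk. RPLP0, the anchor of the stalk, read 8160, 9810 and 10100 in NC and 10500, 11400 and 10700 in mimic libraries, a log2 difference of 0.22 (SE 0.071, adjusted p = 0.0633). NC mimic replicate 1 was the low library of its group, and without it the log2 difference was 0.13 (adjusted p = 0.172). Without NC mimic replicate 2 it was called (adjusted p = 0.0187). DESeq2 also called it (0.0325). Its row RPLP0P6 held more reads than the gene itself (13700, 12400 and 12100 in NC, 13900, 12200 and 13100 in mimic libraries), and with those added the log2 difference was 0.12 (adjusted p = 0.0993).

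The other 3 stalk genes stood nearer to no difference. RPLP1 read 10500, 9860 and 11300 in NC and 10900, 11600 and 11500 in mimic libraries (log2 0.10, adjusted p = 0.221, and log2 0.057 without NC mimic replicate 2). RPLP2 read 6310, 6390 and 6210 against 6410, 5560 and 6360 (log2 -0.05, adjusted p = 0.606). RPL12, at the stalk base, read 3230, 3300 and 3510 against 4030, 3200 and 3150 (log2 0.04, adjusted p = 0.776). In all 3 of these genes the groups overlapped.

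RPL5 and RPL11 form the 5S ribonucleoprotein, which binds MDM2 when ribosome assembly fails. RPL5 read 6810, 7960 and 6990 in NC and 8840, 7960 and 7500 in mimic libraries (log2 0.16, adjusted p = 0.147), with NC mimic replicate 2 level with mimic replicate 2. It was called without NC mimic replicate 2 (log2 0.23, adjusted p = 0.0159), and without mimic replicate 1, the highest library, the log2 difference was 0.095 (adjusted p = 0.468). RPL11 was steady at 13800, 14100 and 13700 against 14300, 14100 and 14100, and its 95% interval of -0.059 to 0.12 in log2 bounds the difference closely. RPL8, the member with the most reads, read 20900, 21400 and 21000 against 21100, 21600 and 21400.

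Of the 8 listed tunnel-exit proteins 6 were tested and none was called (10.8% of all genes were), too few to read as a result about the tunnel exit. RPL19 read 7170, 8070 and 7550 in NC and 8260, 8660 and 7960 in mimic libraries (log2 0.13, adjusted p = 0.131), and it was called without NC mimic replicate 2 (0.0297). RPL23A, a docking site for the signal recognition particle, read 1230, 1280 and 1240 against 1330, 1380 and 1370 (log2 0.12, adjusted p = 0.128), with no overlap of the groups. RPL31 (log2 0.0032) and RPL35 (log2 0.07) stood close to no difference. RPL27, outside that list, read 1570, 2330 and 2320 against 2330, 2540 and 2600 (log2 0.29, adjusted p = 0.135), with NC mimic replicate 1 apart from its group. Without that library the log2 difference was 0.10 (adjusted p = 0.328), and without NC mimic replicate 2 it was 0.38 and called (adjusted p = 0.0211).

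No small-subunit gene was called, beside 10.8% of all genes. Of 30 genes 2 higher and 1 lower had an unadjusted p under 0.05 (15.3% and 13.2% of all genes). RPS2 and RPS3 line the channel by which mRNA enters. RPS3 read 19700, 18200 and 19300 in NC and 18200, 19800 and 20600 in mimic libraries (log2 0.03), and RPS2 read 8340, 8770 and 8780 against 9280, 9210 and 8390 (log2 0.05). Both genes overlapped between groups. RPS24 read 11400, 12100 and 11500 against 11800, 12300 and 11700 (log2 0.03). RPS6, the substrate of the S6 kinases, varied more, at 11200, 9630 and 13900 in NC and 10400, 13200 and 10300 in mimic libraries (log2 -0.03). RPS4X, encoded on chromosome X, read 10900, 11100 and 11100 against 11700, 11400 and 12500 (log2 0.10, adjusted p = 0.159, and log2 0.066 without mimic replicate 3), without overlap.

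RPS14, RPS26 and RPS28 lie at the mRNA exit, and none was called with limma (10.8% of all genes were). RPS28 read 77.1, 913 and 760 in NC and 104, 84.0 and 69.1 in mimic libraries. NC mimic replicate 1 was as low as the mimic libraries, so the groups overlapped, although the log2 difference was -2.15 (SE 0.66, adjusted p = 0.0564). Without NC mimic replicate 1 it was -3.29 (adjusted p = 4.43e-06), and it was also called with edgeR (0.0164) and DESeq2 (0.0260). No 50-base window of the RPS28 coding sequence is its own. RPS14 (log2 0.06) and RPS26 (0.02) stood near no difference.

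Replicates matched closely in most members and poorly in a few. In 4 members the highest library of a group exceeded the lowest by more than 1.5-fold with no library at 0, among them RPS28 (11.8-fold), RPS15 (2.56-fold) and RPS18 (2.17-fold). RPS15 read 536, 1350 and 1370 against 984, 1590 and 1230, and its log2 difference of 0.32 turned to -0.13 without NC mimic replicate 1.

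RPS18 read 3120, 2240 and 4870 against 3760, 3890 and 3690. Its log2 difference of 0.22 (SE 0.19, adjusted p = 0.472) became -0.045 without NC mimic replicate 2 and 0.52 without NC mimic replicate 3 (adjusted p = 0.0458). By contrast RPS27L, a paralogue of RPS27, read 300, 312 and 298 against 304, 311 and 286.

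Read level was higher, and the SE of the log2 difference tended to be smaller, in members with more sequence of their own. Over 76 annotated members, the level per kilobase of coding sequence and the share of own windows had a Pearson r of 0.553 and a Spearman rho of 0.568. For the SE and the share of own windows, over 75 members, they were -0.282 and -0.392. The SE comes from a fit with an intensity trend, so it depends in part on read level and is not the raw replicate spread. These are correlations across genes, which share libraries and are not independent, and they are given as description. Among 19 members with under 20% own windows the median level was 1593 normalised reads per kilobase and the median SE of the log2 difference 0.096. For 36 members with 20 to 80% the values were 10128 and 0.058, and for 21 members over 80% they were 15251 and 0.052. Both called genes, RPL10 (17.8% own) and RPL15 (19.3% own), lay just under the 20% cut, which was not part of the plan. They read 5003 and 9805 per kilobase, above the median of that set. Over all genes 10.8% were called, so their place in the first set is given as description only.

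The levels per kilobase ranged widely between members. RPLP1 (31720), RPL37A (31380) and RPS24 (29353) were the highest among all members. RPL7 (318), RPS26 (394) and RPSA (422) stood lowest among the genes that encode standard subunit proteins and had reads in all libraries. RPL7 and RPS26 had 0.287% and 0% own windows, and RPSA 12.4%. The paralogue RPL3L stood at 74.9 per kilobase with all windows its own.

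**Figure D3:**
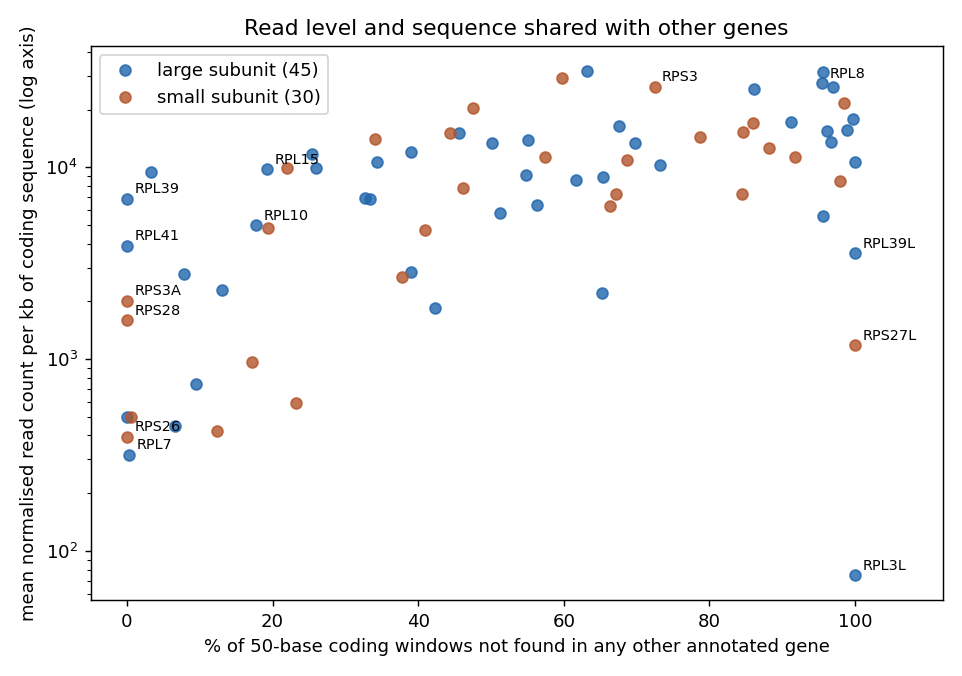
Mean normalised read count per kb of coding sequence over the 6 libraries (y axis, log scale) against the percent of 50-base coding windows found in no other annotated gene (x axis) for large subunit (blue, 45) and small subunit (brown, 30) genes. Of the genes with few windows of their own, RPS26 and RPL7 lie low. RPL22 (3.25% own, 9449 per kb) and RPL15 (19.3% own, 9805 per kb) lie above the median of the members (8985 per kb). RPL3L and RPS27L lie low with all windows their own.

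Pseudogene rows carried a sizeable part of the family's reads. The table held 90 rows named as ribosomal protein pseudogenes, which took 0.447% of normalised reads in NC and 0.459% in mimic libraries. For 25 members the pseudogene rows held over 20% of the gene's own and pseudogene reads together, and for 10 over 50%, with RPS7 at 91.4% and RPL24 at 77.6%. Of 76 pseudogene rows tested, 4 rose (RPS2P4, RPL7AP34, RPL3P4 and RPL35P2) and 0 fell, beside 6.11% of all genes called higher and 4.66% lower. RPL3P4 read 5170, 5150 and 5290 in NC and 6770, 6380 and 5620 in mimic libraries (log2 0.26, adjusted p = 0.020). RPL3 itself read 9870, 11000 and 10800 against 10200, 12300 and 12000 (log2 0.12, adjusted p = 0.269), and it was called once its pseudogene reads were added (log2 0.17, adjusted p = 0.0491). Its own log2 difference was 0.072 without NC mimic replicate 1, 0.20 without mimic replicate 1 and 0.069 without mimic replicate 2, and it was not called in any of these.

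Summed over members, ribosomal protein reads took a slightly larger share of each mimic library. The share was 1.45%, 1.49% and 1.51% in NC (1.48% ± 0.032, SD, n = 3) and 1.51%, 1.57% and 1.53% in mimic libraries (1.54% ± 0.030, SD, n = 3). The groups met without overlapping, at 1.511% in NC mimic replicate 3 and 1.512% in mimic replicate 1. The share of mitochondrially encoded genes moved as well, from 9.12% ± 0.27 to 8.45% ± 0.15 (SD, n = 3). With those genes left out of the total the ribosomal shares were 1.63% ± 0.038 and 1.68% ± 0.035 (SD, n = 3), and the groups overlapped.

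The proportion of large to small subunit reads overlapped between the groups. The large subunit took 0.919% ± 0.020 of reads in NC and 0.958% ± 0.014 in mimic libraries, and the small subunit 0.565% ± 0.014 and 0.580% ± 0.017 (SD, n = 3). The groups overlapped in the small subunit share and not in the large. The ratio of the summed large to the summed small subunit was 1.62, 1.66 and 1.61 in NC and 1.66, 1.62 and 1.68 in mimic libraries. The group means were 1.63 ± 0.025 and 1.65 ± 0.031 (SD, n = 3). The median log2 fold change was 0.058 over large and 0.035 over small subunit genes, with 35 of 45 and 22 of 30 positive. With 1 library left out, the large subunit median ran from 0.043 to 0.077 and the small from 0.0093 to 0.045. All 3 mimic values were above all NC values in 8 large and 3 small subunit genes (16.5% of all genes), and below in 3 and 1 (14.8% of all genes).

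**Figure D4:**
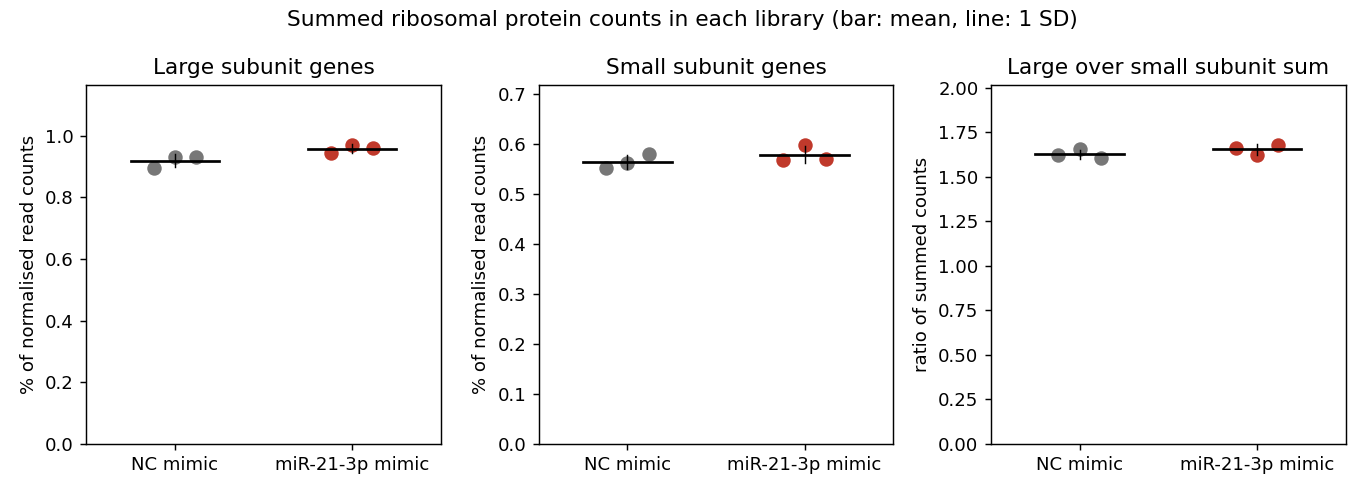
Share of normalised read counts taken by large subunit genes (left, %) and small subunit genes (middle, %), and the ratio of the sums (right), in each NC mimic (grey) and miR-21-3p mimic (red) library, with the mean as a bar and 1 SD as a line. The large subunit shares lie at 0.919% and 0.958% on average, and the ratios overlap between groups.

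Ribosomal proteins and paralogues whose gene names fall outside the rule gave 1 call. FAU (log2 0.05), which encodes a small subunit protein, and GNB2L1 (0.01), now RACK1, which encodes a protein bound to the small subunit, were not called. RPL26L1, a paralogue of RPL26, read 151, 147 and 153 in NC and 176, 187 and 188 in mimic libraries, a log2 difference of 0.29 (SE 0.098) without overlap that missed the threshold (adjusted p = 0.0783). Of 7 such genes tested 1 rose (6.11% of all genes) and 0 fell (4.66%). RPL7L1, a relative of RPL7, rose from 1200, 1230 and 1240 to 1390, 1410 and 1400 (log2 0.19, SE 0.048, adjusted p = 0.0263). Its groups were tight and apart, but the call was lost without NC mimic replicate 1 (0.0708) or 3 (0.0927) and without mimic replicate 1 (0.10), 2 (0.0554) or 3 (0.0847).

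Among 15 tested genes with known TOP mRNAs, most of them translation factors, 1 rose and 0 fell (6.11% and 4.66% of all genes). Their median log2 fold change was 0.0062, beside 0.0044 over all genes. EEF1B2, an exchange factor for the elongation factor eEF1A, went from 1030, 1220 and 1090 to 1300, 1350 and 1390 (log2 0.28, SE 0.065, adjusted p = 0.0216). The groups were separate, but the call was lost without NC mimic replicate 1 (0.0725) or 3 (0.0957) and without mimic replicate 1 (0.0688) or 3 (0.0854). EEF2, the translocation factor, read 74000, 71400 and 72300 against 68800, 73000 and 69500 (log2 -0.04, adjusted p = 0.637).

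Of 16 tested genes of the mTORC1 and MYC control of ribosome production, 3 rose and 1 fell (6.11% and 4.66% of all genes). MYC, a transcription factor that drives ribosome biogenesis, went from 3180, 2730 and 2740 to 3760, 3860 and 3590 (log2 0.38, SE 0.061, adjusted p = 0.00554). It was called without any 1 library, with adjusted p no higher than 0.0437. EIF4EBP1, the translational brake that mTORC1 releases, rose from 482, 542 and 439 to 626, 641 and 645 (log2 0.39, adjusted p = 0.0128). MTOR, the kinase itself, rose from 1520, 1680 and 1540 to 1910, 1810 and 1980 (log2 0.27, adjusted p = 0.0147). TSC1, an inhibitor of the pathway, fell from 3300, 3200 and 3220 to 2950, 2740 and 2890 (log2 -0.18, adjusted p = 0.0281). In all 4 genes the groups did not overlap. The calls of EIF4EBP1 and MTOR were lost without NC mimic replicate 3 (adjusted p = 0.0695 and 0.0790), mimic replicate 1 (0.0581 and 0.0719) or mimic replicate 3 (0.0519 and 0.0660). That of TSC1 was lost without any 1 library except NC mimic replicate 2, with adjusted p from 0.0734 to 0.104.

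Of 12 tested chaperones and transport factors of ribosomal proteins, 3 rose and 0 fell (6.11% and 4.66% of all genes), and the median log2 fold change was 0.16, beside 0.0044 over all genes. GRWD1, a chaperone of RPL3, went from 461, 541 and 462 to 678, 584 and 793 (log2 0.48, SE 0.10, adjusted p = 0.0160). IPO7, an importin that carries ribosomal proteins into the nucleus, went from 5810, 6250 and 6100 to 7030, 6810 and 6950 (log2 0.20, adjusted p = 0.0184). BCCIP, a chaperone of RPL23, went from 886, 1070 and 989 to 1170, 1090 and 1230 (log2 0.25, adjusted p = 0.0492). In these 3 genes every mimic library was above every NC library. All 3 calls were lost without NC mimic replicate 1 (adjusted p = 0.0589, 0.0584 and 0.156 in that order), NC mimic replicate 3 (0.0793, 0.0798 and 0.133), mimic replicate 1 (0.0697, 0.0949 and 0.149) or mimic replicate 3 (0.0652, 0.0657 and 0.168). BCCIP was also lost under every other scaling that was run, from 0.0503 with TMM factors taken from the other genes to 0.0567 with total count scaling.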

How the data were processed

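Gene-level values were measured in 3 NC mimic and 3 miR-21-3p mimic libraries. The authors deposited a normalised signal per gene, reads divided by a size factor for each library and written to 3 significant digits. The submitters' processing notes name bcl2fastq 2.18.12, cutadapt 1.15, TopHat2 2.1.1, featureCounts from Subread 1.5.2 and DESeq2. The genome build and annotation release were not given in the sources used here, and how multi-mapped reads were treated was not given either.

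Dividing each value by the smallest step of its library returned whole reads for 100% of values under 100, and from this 24.4 to 28.0 M reads per library were recovered. Above that, the rounding leaves reads approximate. A count model had been planned as the main test. Because the deposited values are normalised, limma 3.58.1 with an intensity trend was fitted instead to log2(value + 1), in R 4.3.3, for genes at 10 or more in at least 3 libraries. P-values were adjusted by the Benjamini-Hochberg method over all 14795 genes tested, and genes were called at an adjusted p under 0.05. EdgeR 4.0.16 and DESeq2 1.42.0 were run on the recovered reads as alternatives, beside other scalings, filters, pseudocounts, a replicate block, pseudogene reads added to their parents and each library left out. Fold changes on this scale understate changes of low genes. The fit was tested on simulated data. No test was made over the members as a set or on their summed levels.

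Named genes were the called members, the 5 highest and 5 lowest log2 fold changes and the 3 highest reading genes of each subunit, members of structural lists, and called genes of the other lists. RPL3, RPL7, RPL24, RPL37A, RPS4X, RPS7, RPL26L1, EEF2 and the pseudogene rows were named after their values were seen. The members and lists were chosen with earlier results of these data known. Pseudogene rows were taken by name, without RPS19BP1, which is protein-coding. GENCODE release 29 gave coding sequences for the comparison of 50-base windows, and RefSeq (GRCh38.p14) gave the start windows. Neither is known to match the authors' annotation. Values of some members are not reported here, although they stay in the counts and medians.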

Additional observations from a re-analysis of the deposited data

How the results depend on the processing

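The number of members called higher was 0 with limma on the deposited values (6.11% of all genes). It was 2 with DESeq2 (RPL4 and RPLP0), beside 6.48% of all genes it tested. With total count scaling it was 1 (RPL39), beside 1493 genes called in either direction. With pseudogene reads added to their parents it was also 1 (RPL3). The number called lower, 2 with limma (4.66% of all genes), was 4 with the edgeR test on recovered reads (5.14% of all genes it tested). The edgeR test had been planned as the main test, for raw counts. Limma took its place after the deposited values were seen to be normalised. Leaving out 1 library gave 0 to 8 members called higher, 1 to 3 called lower and 179 to 2966 genes called over the whole table. Over those fits the median log2 fold change ran from 0.029 to 0.064 for all members, from 0.043 to 0.077 for the large subunit and from 0.0093 to 0.045 for the small subunit, and the difference of the subunits from 0.016 to 0.043. The direction turned for RPS15 (-0.13 without NC mimic replicate 1, leave-one-out range -0.13 to 0.55) and RPS18 (-0.045 without NC mimic replicate 2, range -0.045 to 0.52), and the cause was not tested. RPL10 was called under every setting run, with adjusted p no higher than 0.0120.

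Replicate numbers are shared by the groups, but same-numbered libraries did not deviate together (correlations of deviations -0.0023, -0.20 and -0.16), so the numbers were not read as pairs. With the replicate block 2 members were called higher (RPLP0, adjusted p = 0.0433, and RPL27, 0.0342), 3 lower with RPS28 added (0.0139), and 1193 genes over the whole table, while RPL7L1 (0.0725), TSC1 (0.0643) and BCCIP (0.0613) were not called. Limits are the 3 libraries a group, the 3-digit rounding of deposited values, and reads of near-identical copies, whose assignment cannot be followed from a gene table. Left without 1 library, a group of 2 is judged on the spread pooled with the other group.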

Other observations

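EEF1A1, which brings aminoacyl-tRNA to the ribosome and is itself a TOP mRNA with many processed copies, read 16100, 7760 and 8800 in NC and 8280, 17200 and 12800 in mimic libraries. Its spread within each group covered the difference between groups (log2 0.24, SE 0.26, adjusted p = 0.572).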
